A study of Homo sapiens with 9 samples.

Results

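Gene expression was compared between PC3 cells co-cultured with osteoblasts of Sost knockout mice (OB SostKO, 2 arrays) and PC3 cells cultured alone (untreated PC3, 2 arrays). PC3 is a human prostate cancer cell line derived from a bone metastasis. These 4 arrays were chosen by their titles out of the 9 in the series. In the other 5 arrays the osteoblasts were wild type (OB WT) and the medium held 100 ng/ml of rhDKK1 (2 arrays) or of rhSOST (3 arrays); these entered the fit so that the spread between arrays could be estimated, and were compared directly with OB SostKO. All cultures were harvested after 48 h. The osteoblasts were primary cells from the calvaria of mouse pups, they were held on culture inserts without touching the PC3 cells, and the RNA on the arrays is that of the PC3 cells. The rhDKK1 and rhSOST are recombinant human proteins that were added to the medium. Co-culture with OB WT and no added protein is not among the arrays, so that an effect of the Sost deletion and an effect of any osteoblast cannot be told apart. The Sost deletion is in the mouse cells, and the human SOST probe set, at values of 3.28 and 3.24 on the untreated and 3.07 and 3.22 on the OB SostKO arrays, does not check it.

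Sclerostin, the product of Sost, is secreted by osteocytes and osteoblasts and blocks Wnt signaling by binding the co-receptors LRP5 and LRP6, which is why bone that lacks it forms in excess. Prostate cancer spreads mainly to the skeleton, where tumor cells and osteoblasts exchange secreted factors. Among those that tumor cells send out are interleukins and chemokines driven by NF-κB, bone morphogenetic proteins, proteases that cut the matrix and the Wnt inhibitor DKK1.

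Each probe set has an RMA log2 value, a scale on which a difference of 1 is a 2-fold change. The 2 untreated arrays differed by a median of 0.121 and the 2 OB SostKO arrays by 0.136 per probe set, without regard to sign. Control probe sets, however, separated the groups. The poly-A control RNAs are spiked in before labelling. They had mean log2 values of 10.99 and 11.66 on the untreated and of 6.41 and 6.71 on the OB SostKO arrays. On the other co-culture arrays they lay between 6.38 and 7.22. Probe sets for 18S ribosomal RNA, which has no poly-A tail, had mean values of 11.68 and 9.64 on the untreated arrays and of 13.10 and 13.19 on the OB SostKO arrays, a log2 difference of 2.48. The other co-culture arrays lay between 12.94 and 13.15, except rhSOST array 3 at 8.71, and this array stood apart from the rest. The part of these differences in the results was not tested. The poly-A controls set the untreated arrays apart from all co-culture arrays. An effect of co-culture and one of how the arrays were prepared therefore cannot be told apart. The arrays read as PC3 cells: EPCAM, an epithelial surface protein, was at 13.18 and 13.23 on the untreated and 13.12 and 13.32 on the OB SostKO arrays, and KRT18, a keratin of simple epithelia, at 13.07 and 13.23 against 13.47 and 13.29. Of 19 osteoblast and osteocyte markers measured, 0 passed the test in either direction, and their mean level was 5.19 and 5.10 on the untreated against 5.08 and 5.08 on the OB SostKO arrays. SP7, a transcription factor of the osteoblast lineage, stood at 4.91 and 4.67 against 4.60 and 4.68, below the array medians of 5.45 to 5.52, and COL1A2 at 4.82 and 4.54 against 4.78 and 4.29. RUNX2 and COL1A1 were above the median in both groups, at 8.91 and 8.87 and 9.13 and 8.92 in untreated PC3. The osteoblasts were mouse cells and the probe sets are for human RNA, so these markers do not check for osteoblast RNA.

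PC3 cells grown with OB SostKO had less RNA of some cytokines and chemokines, among them IL6, CXCL1, CXCL2 and CXCL3, and of some NF-κB feedback genes. Genes with more RNA included IGFBP5, LINC00261 and, at its brightest probe set, ADARB1. Of 54613 probe sets, 36 were higher (0.0659%) and 45 were lower (0.0824%) at a limma adjusted p under 0.05 (Benjamini-Hochberg over all probe sets) and at least 2-fold. These carry the symbols of 60 genes, 27 higher and 33 lower, and 16 of the 81 probe sets have no symbol in the annotation. The largest fall of all, at a probe set without a symbol, ran from 8.67 and 8.96 in untreated PC3 to 3.21 and 3.32 with OB SostKO. With each gene represented by its brightest probe set, 12 of 19775 genes were higher (0.0607%) and 16 were lower (0.0809%). On adjusted p alone, 190 probe sets were higher (0.348%) and 175 lower (0.32%), and at the brightest probe sets 89 genes rose (0.45%) and 81 fell (0.41%). At an unadjusted p under 0.05 with 2-fold, 232 probe sets were higher (0.425%) and 62 lower (0.114%). Over all genes the median difference was -0.02, and 46% of genes were above 0. In bulk RNA, fewer cells that express a gene and less RNA per cell cannot be told apart.

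**Figure D1:**
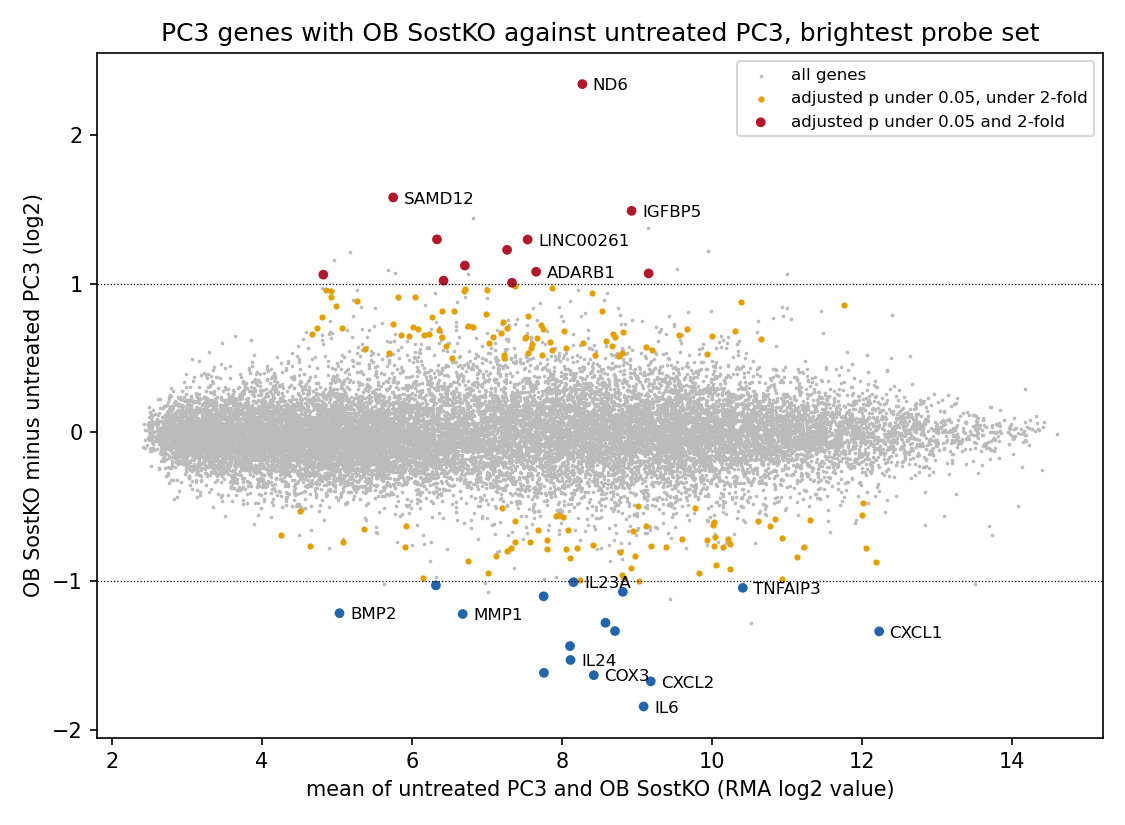
Difference between OB SostKO and untreated PC3 (log2, vertical axis) against the mean of both groups (RMA log2 value, horizontal axis) for 19775 genes, each at its brightest probe set. Red and blue points are the 12 genes higher and 16 genes lower at an adjusted p under 0.05 and 2-fold, orange points pass the adjusted p alone, and dotted lines mark 2-fold; IL6 lies lowest at -1.84 and ND6 highest at 2.34.

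Cytokines and chemokines formed the largest group of falls. IL6, a cytokine of inflammation that also stimulates bone resorption, had log2 values of 9.90 and 10.12 on the untreated and 8.30 and 8.04 on the OB SostKO arrays. This is a 3.58-fold lower level (log2 difference -1.84, standard error 0.12, limma adjusted p = 0.00144), and the arrays of the groups were far apart. The neutrophil-attracting chemokines CXCL1, CXCL2 and CXCL3 are close relatives of each other, and cross-reading by the CXCL2 probe set, which is of the _x_at class, is possible. CXCL1 went from 12.82 and 12.97 to 11.64 and 11.49, CXCL2 from 9.88 and 10.16 to 8.27 and 8.43 and CXCL3 from 9.39 and 9.36 to 8.06 and 8.02. Their log2 differences were -1.34, -1.67 and -1.33 (limma adjusted p = 0.00144, 0.004 and 0.00183). CXCL1 remained among the bright transcripts after its fall.

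The remaining falls of this group were in interleukins. IL24, a member of the IL-10 family, had values of 8.77 and 8.99 in untreated PC3 and 7.48 and 7.23 with OB SostKO (log2 difference -1.53, limma adjusted p = 0.00832). IL23A, a subunit of interleukin 23, fell from 8.66 and 8.66 to 7.79 and 7.51 and IL1B, a central inflammatory cytokine, from 11.75 and 11.35 to 10.70 and 10.73. The differences were -1.01 and -0.84 on the log2 scale (limma adjusted p = 0.0144 and 0.027). With the mean of its 4 probe sets IL23A did not pass. CXCL8, another neutrophil chemokine, depended on the probe set: it had a difference of -0.56 at the brighter one (limma adjusted p = 0.0525) and of -1.19 at the other, where the values were 12.31 and 12.16 against 11.02 and 11.08 (adjusted p = 0.00144). Over the list of 30 cytokines and chemokines, 7 fell (23.3%), none rose and 23 did not pass, where 0.41% of all genes fell and 0.45% rose. The gene lists were chosen with earlier results of these data known. The median difference was -0.26, with 23 members below 0 and 7 above, where 46% of all genes were above 0. Between 3 and 9 members fell when an array of the series was left out, the lowest without OB SostKO array 1.

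NF-κB is a transcription factor that switches on inflammatory genes together with its own inhibitors. Of 21 measured NF-κB subunits and feedback genes, 5 fell (23.8%) and none rose, where 0.41% of all genes fell and 0.45% rose. The median difference of the list was -0.22. TNFAIP3, a ubiquitin-editing enzyme that ends NF-κB signals, had values of 10.97 and 10.90 on the untreated and of 10.02 and 9.76 on the OB SostKO arrays (log2 difference -1.04, limma adjusted p = 0.0186). IRAK2, a kinase downstream of the interleukin 1 and Toll-like receptors, fell from 9.43 and 9.26 to 8.21 and 8.34. NFKBIZ, a nuclear member of the IκB family, went from 9.28 and 9.35 to 8.22 and 8.46. For the subunit RELB the values were 7.52 and 7.45 against 6.45 and 6.63, and for ICAM1, an adhesion molecule for white blood cells, 8.19 and 8.15 against 7.32 and 7.58. The differences were -1.07, -0.98, -0.94 and -0.72 (limma adjusted p = 0.00459, 0.0144, 0.0144 and 0.0354). NFKBIA, which holds NF-κB in the cytoplasm, had -0.77 with an adjusted p of 0.116. The subunits NFKB1 and RELA had -0.19 and -0.29 and did not pass either. The count of 5 was 0 without OB SostKO array 1 and 1 without OB SostKO array 2, untreated array 1 or untreated array 2; without another co-culture array it was 3 to 6.

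The promoters of these genes are shown because 6 of the genes that fell share a motif there. In windows from 250 bases before to 50 after the gene start, taken from RefSeq's human promoters (GRCh38.p14), the NF-κB consensus was found on either strand in 6 of the 23 genes called lower that have a window (26.1%), in 3 of the 23 called higher (13%), in 6.47% of the 15384 measured genes with a window and in 5.72% of all 27305 windows. The 6 are IL6, CXCL1, CXCL2, CXCL3, IL23A and TNFAIP3. CXCL1 and CXCL2 share a run of 42 identical bases in the stretch printed here and CXCL2 and CXCL3 a run of 37, so these 3 promoters are copies of each other. The 150 bases before each gene start are given 5′ to 3′ on the strand of the gene, with the motif in capitals; the motif begins between 95 bases (IL23A) and 67 bases (TNFAIP3) before the start, and TNFAIP3 holds another copy 55 bases before it. The windows are chr7:22727050-22727199 (plus strand) for IL6, chr4:73869243-73869392 (plus) for CXCL1, chr4:74099196-74099345 (minus) for CXCL2, chr4:74038690-74038839 (minus) for CXCL3, chr12:56338734-56338883 (plus) for IL23A and chr6:137867109-137867258 (plus) for TNFAIP3.
IL6: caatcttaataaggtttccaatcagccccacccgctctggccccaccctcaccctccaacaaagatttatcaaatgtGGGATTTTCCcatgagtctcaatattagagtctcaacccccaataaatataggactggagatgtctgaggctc
CXCL1: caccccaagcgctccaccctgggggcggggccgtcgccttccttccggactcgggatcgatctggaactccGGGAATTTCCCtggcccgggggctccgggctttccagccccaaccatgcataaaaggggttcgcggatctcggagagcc
CXCL2: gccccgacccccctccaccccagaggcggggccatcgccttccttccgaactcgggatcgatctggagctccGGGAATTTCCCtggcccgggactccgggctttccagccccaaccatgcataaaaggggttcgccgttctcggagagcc
CXCL3: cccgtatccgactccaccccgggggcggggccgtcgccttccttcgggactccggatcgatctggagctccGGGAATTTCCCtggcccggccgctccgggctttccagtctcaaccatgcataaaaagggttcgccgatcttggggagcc
IL23A: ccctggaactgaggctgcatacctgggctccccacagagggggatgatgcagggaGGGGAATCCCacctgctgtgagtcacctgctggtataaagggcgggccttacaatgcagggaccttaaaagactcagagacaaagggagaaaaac
TNFAIP3: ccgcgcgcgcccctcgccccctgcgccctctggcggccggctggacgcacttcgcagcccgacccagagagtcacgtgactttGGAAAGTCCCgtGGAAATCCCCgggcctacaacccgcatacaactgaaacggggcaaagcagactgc
The motif of AP-1 factors, TGANTCA, was in 8.7% of the windows of genes called lower, in 4.35% of those called higher and in 5.84% of those of measured genes, and TGACGTCA, read by CREB and ATF factors, in 4.35%, 4.35% and 2.67%. Both strands were searched, TGANTCA and TGACGTCA read alike on either strand, and no match of 1 motif overlapped that of another in these genes. The CArG box of serum response factor was in 4.35%, 0% and 1.22%. A match of letters is not a measured binding site.

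Some immediate early genes, the first to be transcribed when a cell is stimulated, fell as well and none rose. ATF3, a stress-induced factor of the ATF family, had values of 9.19 and 9.25 on the untreated and 8.04 and 7.85 on the OB SostKO arrays, a 2.42-fold difference (log2 difference -1.28, standard error 0.10, limma adjusted p = 0.00241). It was the sole member of 14 AP-1 and ATF factors that passed (7.14%, median difference -0.17). FOS and JUNB had -0.48 and -0.51 with limma adjusted p of 0.0876 and 0.119. JUN, a bright member, had -0.17 (adjusted p = 0.484). Of 26 other immediate early genes 6 fell (23.1%) and none rose, where 0.41% of all genes fell and 0.45% rose. The other 20 did not pass, among them the bright IER2 and IER5 with 0.13 and 0.03 (limma adjusted p = 0.615 and 0.927). The median difference of the 26 was -0.19. HBEGF, a ligand of the EGF receptor, fell from 10.30 and 10.31 to 9.32 and 9.40. GADD45A, a growth arrest gene, went from 12.38 and 12.52 to 11.75 and 11.59, and KLF6, a zinc finger factor, from 11.59 and 11.64 to 10.80 and 10.89. CCN2, a matrix protein induced by TGF-β and YAP, KLF10 and KLF4 had differences of -0.62, -0.56 and -0.76 (limma adjusted p = 0.0246, 0.0461 and 0.0464). PTGS2, the inducible cyclooxygenase, had -0.86 and an adjusted p of 0.0737. The 6 falls were 0 without OB SostKO array 1, 2 without OB SostKO array 2 and 1 without untreated array 1 or 2; without another co-culture array they were 3 to 6. EGR1 itself was dim, at 4.53 and 4.19 in untreated PC3 and 4.23 and 4.28 with OB SostKO, and its arrays overlapped. Among 21 feedback genes of ERK signaling 1 passed (4.76%). This was DUSP1, a phosphatase that removes phosphate from MAP kinases, which fell from 10.49 and 10.65 to 9.90 and 9.80 (limma adjusted p = 0.0158). The median of the list was -0.02, and DUSP4 had a difference of 0.79 (adjusted p = 0.149).

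Other genes that fell had diverse functions. BMP2, a bone morphogenetic protein that induces bone, fell from 5.86 and 5.43 to 4.31 and 4.55 (log2 difference -1.21, limma adjusted p = 0.0131), so that on the OB SostKO arrays it lay below the 40th percentile of 4.82 to 4.91. ID3, a target of BMP signaling, fell from 10.33 and 10.25 to 9.70 and 9.44 (difference -0.72, adjusted p = 0.0451), whereas ID1 had -0.12 (adjusted p = 0.737) and overlapping arrays. NOG, the BMP antagonist noggin, had -0.79 with an adjusted p of 0.0541. Of 29 BMP ligands, receptors, targets and antagonists 2 fell (6.9%) and none rose, with a median of -0.01. Over all genes 0.41% fell and 0.45% rose. ID3 lost its call with cyclic loess and when any 1 array other than rhSOST array 3 was left out, and BMP2 without untreated array 1 or either OB SostKO array. MMP1, a collagenase, was at 7.30 and 7.28 in untreated PC3 and at 5.83 and 6.31 with OB SostKO (difference -1.22, adjusted p = 0.0144). CEACAM5, the carcinoembryonic antigen, went from 8.60 and 8.54 to 6.60 and 7.31, with a gap between the OB SostKO arrays that exceeded that of most genes. The membrane-binding annexin ANXA10 fell from 8.96 and 8.69 to 7.26 and 7.52 and KRT37, a hair keratin, from 6.97 and 6.70 to 5.63 and 5.98. HIVEP1, a zinc finger protein that binds κB motifs, went from 8.32 and 8.30 to 7.13 and 7.29. Their differences were -1.61, -1.43, -1.03 and -1.10 (limma adjusted p = 0.0144, 0.00336, 0.0236 and 0.0133).

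The falls next to the 2-fold threshold were those of CYP1B1 and DHRS9 at their brightest probe sets. CYP1B1, a cytochrome P450 that oxidizes estrogens and is induced through the aryl hydrocarbon receptor, had values of 9.50 and 9.57 on the untreated and 8.54 and 8.53 on the OB SostKO arrays at its brightest probe set. The log2 difference of -0.999 (limma adjusted p = 0.00747) is just under 2-fold. At another probe set of CYP1B1 the values were 9.58 and 9.40 against 6.91 and 7.74, a difference of -2.16. DHRS9, a retinol dehydrogenase, had -0.99 at its brightest probe set, also just outside, and -1.47 and -1.51 at the other 2. IL23A with -1.01 and KRT37 with -1.03 were the falls just inside. The receptor gene AHR had -0.32 (limma adjusted p = 0.438), and CYP1A1, its best known target, -0.19 (adjusted p = 0.549). Of the list of 11 genes of this receptor and its targets CYP1B1 fell, LRATD1 rose and 9 did not pass. The share called was 18.2%, where 0.45% of all genes rose and 0.41% fell. APOBEC3B, a cytidine deaminase, fell from 10.50 and 10.56 to 9.68 and 9.85 and CDKN1A, the cell cycle inhibitor p21, from 9.12 and 9.23 to 8.46 and 8.29 (limma adjusted p = 0.0133 and 0.0162). Of 41 cell cycle genes CDKN1A alone passed (2.44%), and MKI67, a marker of dividing cells, had 0.08 (limma adjusted p = 0.743).

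Transcripts encoded by the mitochondrial genome split by gene. ND6, the subunit of complex I that is the sole protein gene on the light strand, had values of 7.57 and 6.64 on the untreated and 9.83 and 9.06 on the OB SostKO arrays, a 5.06-fold rise (log2 difference 2.34, standard error 0.32, limma adjusted p = 0.0222). It had the largest rise of all genes at their brightest probe sets and also one of the widest gaps between replicates. COX3, a subunit of complex IV, fell from 9.34 and 9.14 to 7.56 and 7.66 (difference -1.63, adjusted p = 0.00144); its probe set is of the _x_at class, which can read related sequences. The other 5 measured genes, all on the heavy strand, were below untreated PC3 without passing: ATP6 had -1.02, ND2 -0.69, COX1 -0.63, ND4 -0.49 and COX2 -0.25 (adjusted p = 0.0959, 0.169, 0.0735, 0.282 and 0.237). At a dimmer probe set ATP6 passed, with 7.43 and 7.60 against 5.84 and 6.29. Of the 7 genes 1 rose and 1 fell (14.3% each), where 0.45% of all genes rose and 0.41% fell. The median over the 7 genes was -0.63. Of 30 respiratory chain genes in the nucleus none passed, and their median was -0.0045. ND6 no longer passed without untreated array 2, OB SostKO array 1, OB SostKO array 2 or rhSOST array 2.

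After ND6 and SAMD12, IGFBP5 had the largest rise of the genes called at their brightest probe sets. IGFBP5, which binds insulin-like growth factors and is abundant in bone, had values of 8.16 and 8.21 on the untreated and 9.53 and 9.82 on the OB SostKO arrays, a 2.8-fold rise (log2 difference 1.49, standard error 0.12, limma adjusted p = 0.00243). All 6 of its probe sets were above untreated PC3, by 0.61 to 1.71, and 3 passed. The one with the largest difference did not, with untreated arrays at 6.14 and 7.37 and an adjusted p of 0.181. IGFBP5 was the sole gene of 16 in the IGF axis that passed (6.25%, where 0.45% of all genes rose and 0.41% fell). IGF1R, the receptor, had -0.05 (adjusted p = 0.861), and IGFBP3, another binding protein, -0.24 (adjusted p = 0.412).

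LINC00261, a long noncoding RNA of endodermal tissues, rose from 6.93 and 6.86 to 8.24 and 8.15 (log2 difference 1.30, limma adjusted p = 0.00241). FOXA2, the forkhead factor encoded next to it, rose from 8.07 and 8.19 to 8.95 and 8.93 (difference 0.81, adjusted p = 0.0481). These were the 2 members of 14 prostate epithelial lineage genes that passed (14.3%, where 0.45% of all genes rose and 0.41% fell). HOXB13, the prostate homeobox factor, had 0.41 (limma adjusted p = 0.118). FOXA2 lost its call when any 1 array other than rhSOST array 3 was left out.

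ADARB1, an enzyme that edits adenosine to inosine in RNA, had closely spaced values of 7.13 and 7.10 in untreated PC3 and 8.21 and 8.19 with OB SostKO (log2 difference 1.08, standard error 0.08, limma adjusted p = 0.00194). This was at its brightest probe set, and with the mean of its 5 probe sets ADARB1 did not pass. TENT5C, a poly(A) polymerase, rose from 6.53 and 6.79 to 7.78 and 7.98 (difference 1.23, adjusted p = 0.0162). With APOBEC3B, which fell, they were the 3 genes of 22 for RNA editing, tailing and microRNA processing that passed. This is 13.6%, where 0.45% of all genes rose and 0.41% fell. PCDH18, a protocadherin, rose from 6.22 and 6.07 to 7.11 and 7.43 and GABBR2, a subunit of the GABA-B receptor, from 5.53 and 5.85 to 6.74 and 7.22. CSGALNACT1, which starts chondroitin sulfate chains, went from 5.82 and 6.01 to 6.63 and 7.23 and the zinc finger gene ZNF14 from 6.73 and 6.93 to 7.83 and 7.85. Both groups were separate for each of these genes, and the differences ran from 1.01 for ZNF14, just inside the threshold with CSGALNACT1 at 1.02, to 1.30 for GABBR2. With the mean of its 4 probe sets GABBR2 did not pass.

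Some rises belonged to genes with little known function. SAMD12 rose from 4.70 and 5.23 to 6.53 and 6.55, LRATD1 from 8.48 and 8.76 to 9.58 and 9.80 and LOC100289230 from 4.19 and 4.39 to 5.12 and 5.58 (limma adjusted p = 0.0213, 0.0114 and 0.0213). LRATD1 is read by 7 probe sets and passed at the 2 brightest, with 1.07 and 1.70, while the other 5 had differences of -0.26 to 1.65. UBE2QL1, of the ubiquitin-conjugating enzyme family, and DENND2A, an activator of Rab GTPases, were the rises just outside, with 0.98 and 0.97. TNFSF15, a cytokine of the TNF family made by endothelial cells, went the other way from the interleukins: it passed at both of its probe sets, with 0.82 at the brighter and 1.58 at the dimmer. CXCR4, the receptor of CXCL12 that guides cells to bone, was called at a dim probe set, where values of 3.80 and 4.09 rose to 5.15 and 5.43, and had -0.00 at its brightest.

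**Figure D2:**
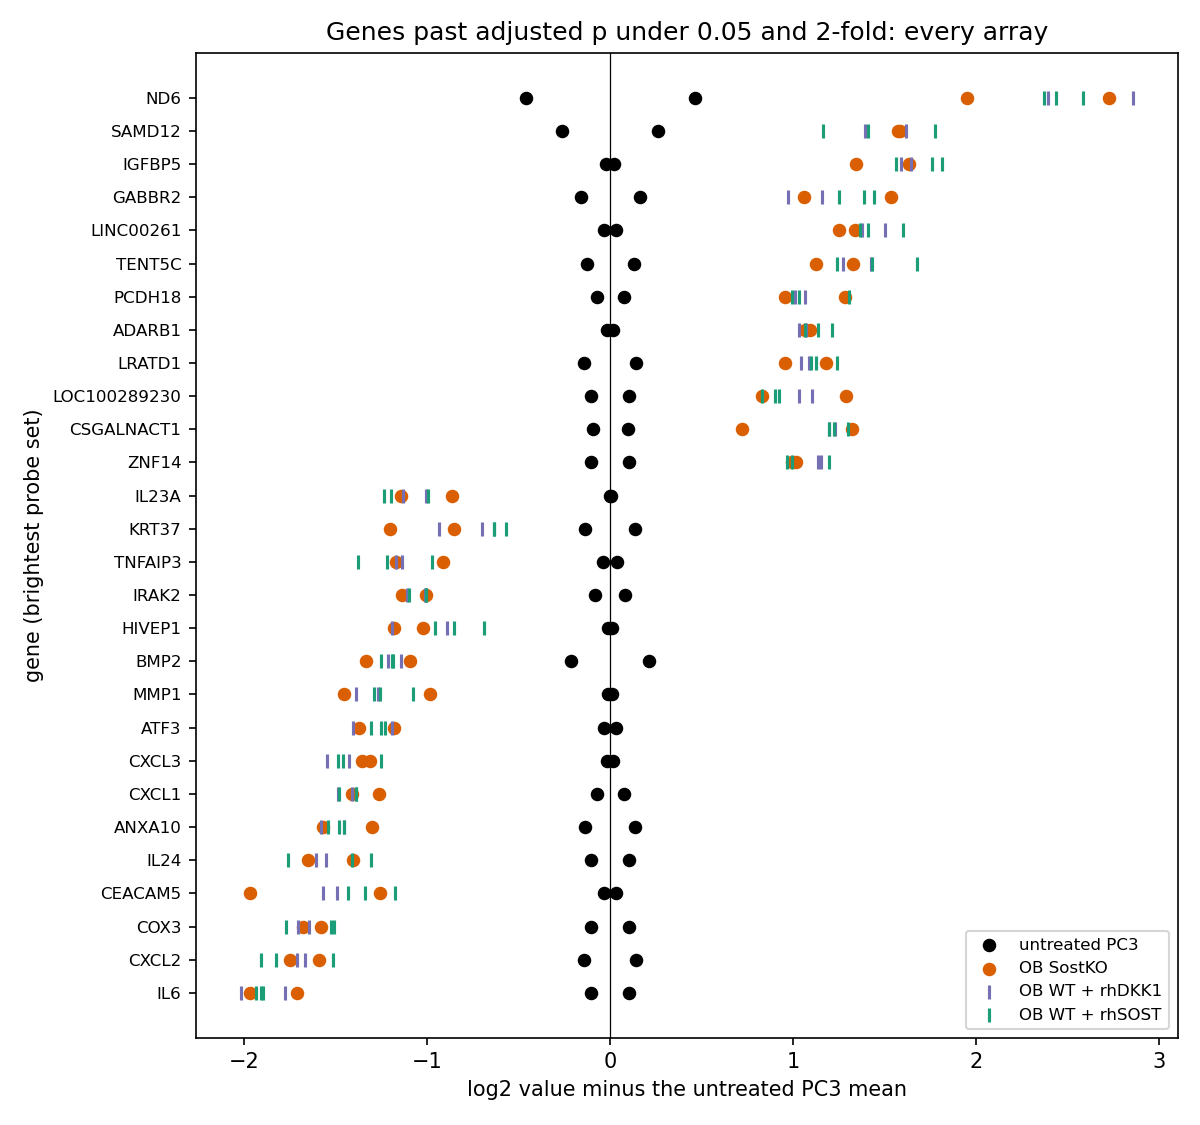
Log2 value minus the untreated PC3 mean (horizontal axis) on every array for the 28 genes past an adjusted p under 0.05 and 2-fold at their brightest probe set (vertical axis). Filled points are untreated PC3 and OB SostKO arrays and ticks are the other co-cultures; the untreated and OB SostKO arrays do not overlap for any of the 28.

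The arrays of the groups did not overlap for any of the 81 called probe sets. These were selected on the same arrays, so this is no separate evidence for the calls. Among all probe sets 41.2% had no overlap, as had 20.4% of all genes with higher and 23.1% with lower OB SostKO arrays at the brightest probe set. Of the 28 genes, 9 passed the adjusted p whichever array of the series was left out: IL6, CXCL1, CXCL3, ATF3, ANXA10, COX3, IGFBP5, LINC00261 and ADARB1. The number that passed was 12 without untreated array 1, 14 without untreated array 2, 13 without OB SostKO array 1 and 13 without OB SostKO array 2. CXCL2 and IRAK2 lost their calls without OB SostKO array 1 alone. The direction held in all of these fits for each of 58 genes, namely those called by size or passing in a list and CRIM1, which did neither. Fitted on the 4 arrays alone, without the spread of the other co-cultures, 7 probe sets were called and none of the 28 genes passed.

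Genes for zinc finger proteins named ZNF and a number, most of which are DNA-binding repressors, were mostly above 0; the group was formed with its values in view. Of 502 such genes 12 rose and 0 fell (2.39% and 0%), where 0.4% of the other 19273 genes rose and 0.42% fell. Their median difference was 0.07 against -0.02, and 65.7% were above 0 against 45.5%. At an unadjusted limma p under 0.05, 89 were higher (17.7%) and 22 lower (4.38%), against 7.68% and 8.06% of the other genes. ZNF14 was the sole member past 2-fold at its brightest probe set, while ZNF420 and ZNF451 passed at dimmer ones, with 1.34 and 1.43. Many of these genes are near-copies of each other, and cross-reading between them was not tested.

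Few genes of the Wnt pathway, which sclerostin inhibits, passed at the level of RNA. They were 2.22% of ligands, receptors and modulators, 0% of the β-catenin complex and TCF factors and 4.17% of target genes. Over all genes 0.45% rose and 0.41% fell. DKK1, the secreted Wnt inhibitor, was one of the brightest transcripts in PC3 cells, at 14.01 and 13.99 on the untreated and 13.90 and 13.95 on the OB SostKO arrays (log2 difference -0.08, limma adjusted p = 0.684). Of 45 Wnt ligands, receptors and secreted modulators, WNT10B, a ligand that promotes bone formation, fell from 7.46 and 7.46 to 6.94 and 6.96 (difference -0.50, adjusted p = 0.0345) and none rose (median -0.01). The receptors FZD5 and FZD1 had 0.43 and 0.40 (adjusted p = 0.13 and 0.148). The co-receptors LRP5 and LRP6 had -0.32 and 0.16 (adjusted p = 0.731 and 0.517), and the untreated and OB SostKO arrays overlapped for LRP5. None of 26 genes of the β-catenin complex and its TCF factors passed. The largest difference there was that of DVL3, an adaptor behind the receptors, at -0.76 (adjusted p = 0.182). Of 24 Wnt target genes PPARD, a nuclear receptor, fell from 11.18 and 11.08 to 10.48 and 10.62 (difference -0.58, adjusted p = 0.0413), and the median of the list was -0.06. LEF1, a TCF family factor and target, had -0.30 (adjusted p = 0.305). WNT10B and PPARD lost their calls when any 1 array other than rhSOST array 3 was left out.

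Growth factor receptors and the TGF-β pathway contributed calls that were few in number. The share called was 15.4% of the EGF receptor family and 4.35% of the TGF-β pathway, where 0.45% of all genes rose and 0.41% fell. TGFBR3, a co-receptor of TGF-β also called betaglycan, rose from 6.75 and 6.95 to 7.51 and 7.52 (log2 difference 0.67, limma adjusted p = 0.0345) and was the sole call of 23 genes of that pathway (median -0.01). SMAD7, its feedback inhibitor, had -0.76 (adjusted p = 0.057). Besides HBEGF, ERRFI1, an inhibitor of the EGF receptor, fell from 12.26 and 12.24 to 11.75 and 11.81 among 13 genes of the EGF receptor family (difference -0.47, adjusted p = 0.0451). TGFBR3 and ERRFI1 lost their calls when any 1 array other than rhSOST array 3 was left out, and with the replicate number as a block. The receptor EGFR had values of 9.94 and 10.41 against 9.55 and 10.23, which overlapped. Of 19 ligands that act on bone remodeling IL6 and BMP2 fell (10.5%). TNFSF11, the osteoclast factor RANKL, was dim in both groups, at 3.83 and 3.72 against 3.54 and 3.47. EDN1, endothelin 1, an osteoblast-stimulating peptide of prostate tumors, had -0.97 (adjusted p = 0.134).

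Genes of adhesion, invasion and cell shape contributed calls that were few in number. They were 0% (integrins) to 10.5% (epithelial-mesenchymal transition) of the members measured, where 0.45% of all genes rose and 0.41% fell. Of 32 proteases of invasion and their inhibitors MMP1 alone passed; PLAU, the urokinase, stood at 13.06 and 12.94 against 13.07 and 12.99, and MMP14, a membrane collagenase, had -0.39 (adjusted p = 0.287). No member of 25 integrin and focal adhesion genes passed. Their median was -0.12, with 18 members below 0 and 7 above, where 46% of all genes were above 0. PCDH18 was the sole rise of 28 cadherin and junction genes, and CDH1, E-cadherin, had -0.06 (adjusted p = 0.863). Of 43 genes of actin, myosin and filopodia RHOF, a GTPase of filopodia, fell from 11.25 and 11.34 to 10.51 and 10.66 and LIMA1, an actin-bundling protein, from 11.04 and 11.14 to 10.35 and 10.57 (limma adjusted p = 0.0292 and 0.0447). The median of these genes was -0.18, with 34 members below 0 and 9 above, where 46% of all genes were above 0. ZEB1, a repressor of epithelial genes, rose from 8.03 and 7.93 to 8.53 and 8.63 and S100A4, a calcium-binding protein of motile cells, fell from 9.96 and 9.59 to 9.02 and 8.99 (adjusted p = 0.0294 and 0.0361) among 19 genes of the epithelial-mesenchymal transition. COL8A1, a short-chain collagen, rose from 4.56 and 4.33 to 5.16 and 5.63 among 27 matrix genes (adjusted p = 0.0412). RHOF, LIMA1, ZEB1 and COL8A1 lost their calls when any 1 array other than rhSOST array 3 was left out, and S100A4 did so for any but that array and untreated array 2.

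In stress and metabolic lists, calls were few in number. They were 0% to 5.88% (interferon-stimulated genes) of the members measured, where 0.45% of all genes rose and 0.41% fell. PPP1R15A, which reverses the block of translation under stress, fell from 9.49 and 9.27 to 8.37 and 8.57 among 29 genes of the unfolded protein response (log2 difference -0.91, limma adjusted p = 0.0407), and ADM, the peptide adrenomedullin, from 10.27 and 10.37 to 9.79 and 9.65 among 31 of hypoxia and glycolysis (difference -0.60, adjusted p = 0.0331). Of 34 interferon-stimulated genes IRF1, a transcription factor, fell from 7.78 and 7.65 to 6.93 and 6.94 and HERC5, a ligase for ISG15, rose from 6.91 and 6.92 to 7.68 and 7.54 (adjusted p = 0.0161 and 0.0303). ADM and HERC5 lost their calls when any 1 array other than rhSOST array 3 was left out. PPP1R15A did so for any but rhSOST arrays 2 and 3, and IRF1 for any 1 untreated or OB SostKO array. No member passed among 40 cytosolic ribosomal proteins, 38 splicing regulators, 25 genes of cholesterol synthesis, 21 of the NRF2, metallothionein and heat shock group, 20 solute carriers, 9 septins and 9 genes of PC3 identity, and their medians lay between -0.08 and 0.01. Markers of other cell types gave 0 calls too, for 12 of fibroblasts and endothelium and 10 of blood, where PTPRC, the leukocyte antigen CD45, stood at 3.24 and 3.09 against 3.13 and 3.03. Human probe sets read these as well, so that they do not check for RNA of mouse cells.

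**Figure D3:**
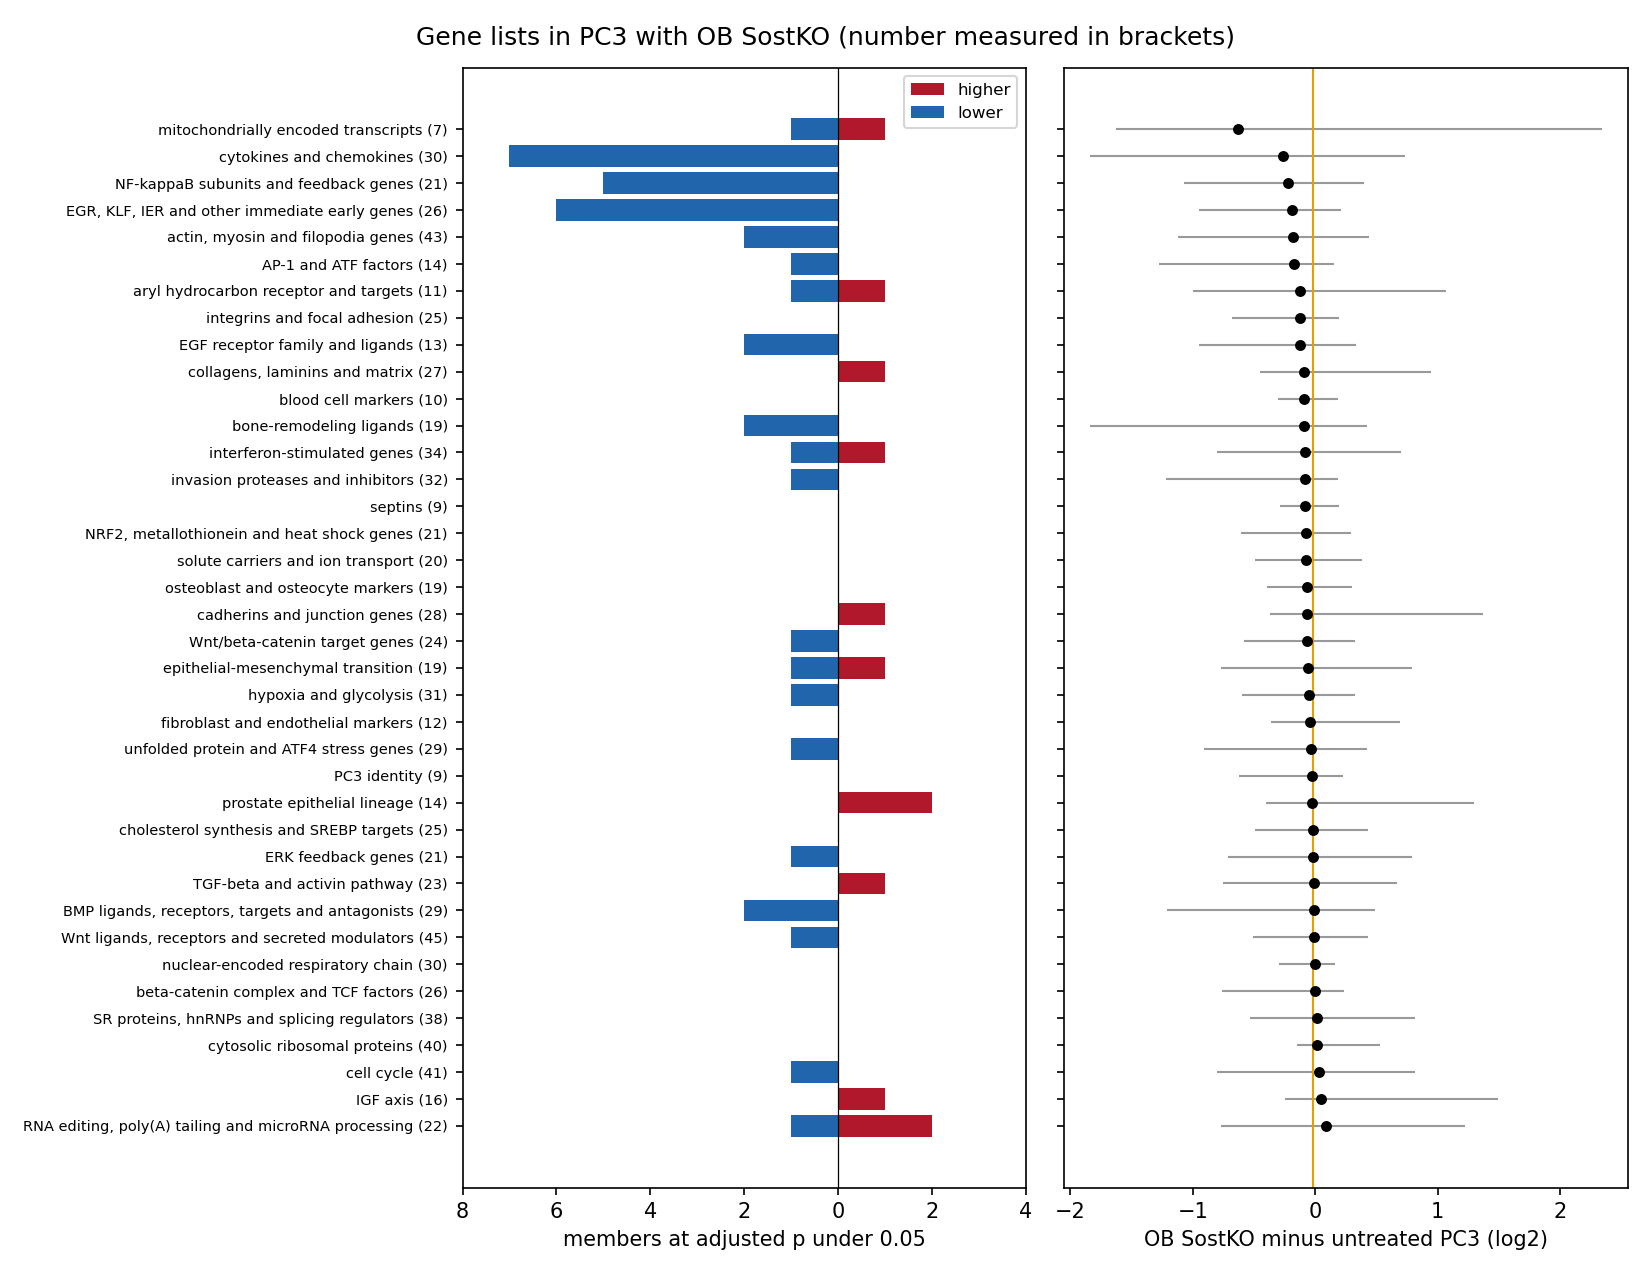
Members at an adjusted p under 0.05 (left, lower in blue to the left of 0 and higher in red) and the median and range of the log2 difference between OB SostKO and untreated PC3 (right, point and line) for 38 gene lists, with the number measured in brackets; the orange line is the median of all genes. Cytokines and chemokines have the most calls, 7 lower, and the mitochondrially encoded transcripts the lowest median, -0.63.

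Several genes gave different answers at different probe sets, and this went mostly in the direction of rises. Of 10523 genes with at least 2 probe sets, 224 had a probe set that differed 2-fold or more, 189 higher and 35 lower. For 133 of the 189 higher genes (70.4%) and 9 of the 35 lower genes (25.7%) the brightest probe set moved by less than 1.2-fold. SEPTIN7, a septin of the cytoskeleton, had values of 4.57 and 4.62 in untreated PC3 and 6.87 and 6.94 with OB SostKO at one probe set, where rhSOST array 3 was at 3.87. At its brightest probe set the values were 12.16 and 12.12 against 11.76 and 11.98. OGT, the transferase that adds N-acetylglucosamine to proteins, had 2.43 against 0.08 at its brightest, CDK1, the mitotic kinase, 2.23 against 0.07, and the TGF-β repressor SKI 2.13 against -0.13. ARGLU1, a splicing cofactor, had 1.79 against -0.50. MYO10, the myosin of filopodia, had values of 7.12 and 8.29 on the untreated, 9.22 and 9.25 on the OB SostKO arrays and 7.26 on rhSOST array 3 at its most changed probe set. CRIM1, a transmembrane protein, had 8.67 on rhSOST array 3 and 9.07 and 9.11 on the untreated arrays at its most changed probe set, against 10.12 and 10.20 with OB SostKO. These genes were below 2-fold at their brightest probe sets. Of the 142 genes of this kind, 15 passed the adjusted p at the most changed probe set and 119 had an unadjusted limma p under 0.05. The count of 142 was 115 without untreated array 1 and 251 without untreated array 2.

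**Figure D4:**
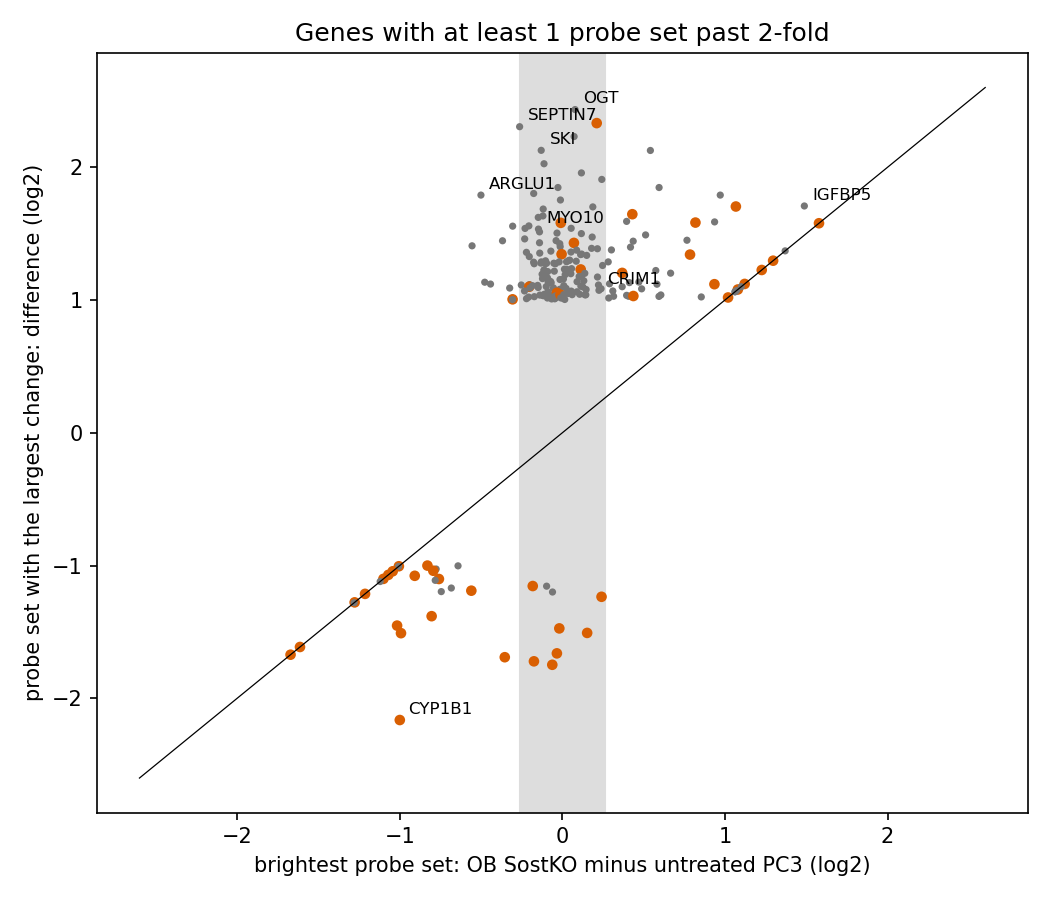
Log2 difference between OB SostKO and untreated PC3 at the probe set with the largest change (vertical axis) and at the brightest probe set (horizontal axis) for the 224 genes with a probe set past 2-fold. The grey band is less than 1.2-fold at the brightest probe set, the line marks equal values and orange points pass an adjusted p under 0.05 at the most changed probe set; 133 of the 189 genes with a rise lie in the band.

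Most of these rises were missing on rhSOST array 3, where the 18S signal was low too. The 274 probe sets that were 2-fold or more higher with OB SostKO, at any p, had medians of 1.17 and 1.30 above the untreated mean on the OB SostKO arrays and of 0.97 to 1.24 on the other co-culture arrays apart from rhSOST array 3, where the median was -0.08. Whether the 18S signal has a part in these rises was not tested. For the 133 genes in which the brightest probe set moved little, the most changed probe set was lower on rhSOST array 3 than on the mean of the other co-culture arrays in 132, by a median of 1.34 on the log2 scale. The 36 probe sets called higher had a median of 1.18 on that array and the 45 called lower -1.33, near their medians of 1.21 and 1.32 and of -1.33 and -1.32 on the OB SostKO arrays. The spread on which calls rest includes rhSOST array 3, so a probe set that differed there was less readily called. Without that array in the fit, 179 probe sets were called higher and 52 lower. The 28 genes named above for their size all passed there too.

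**Figure D5:**
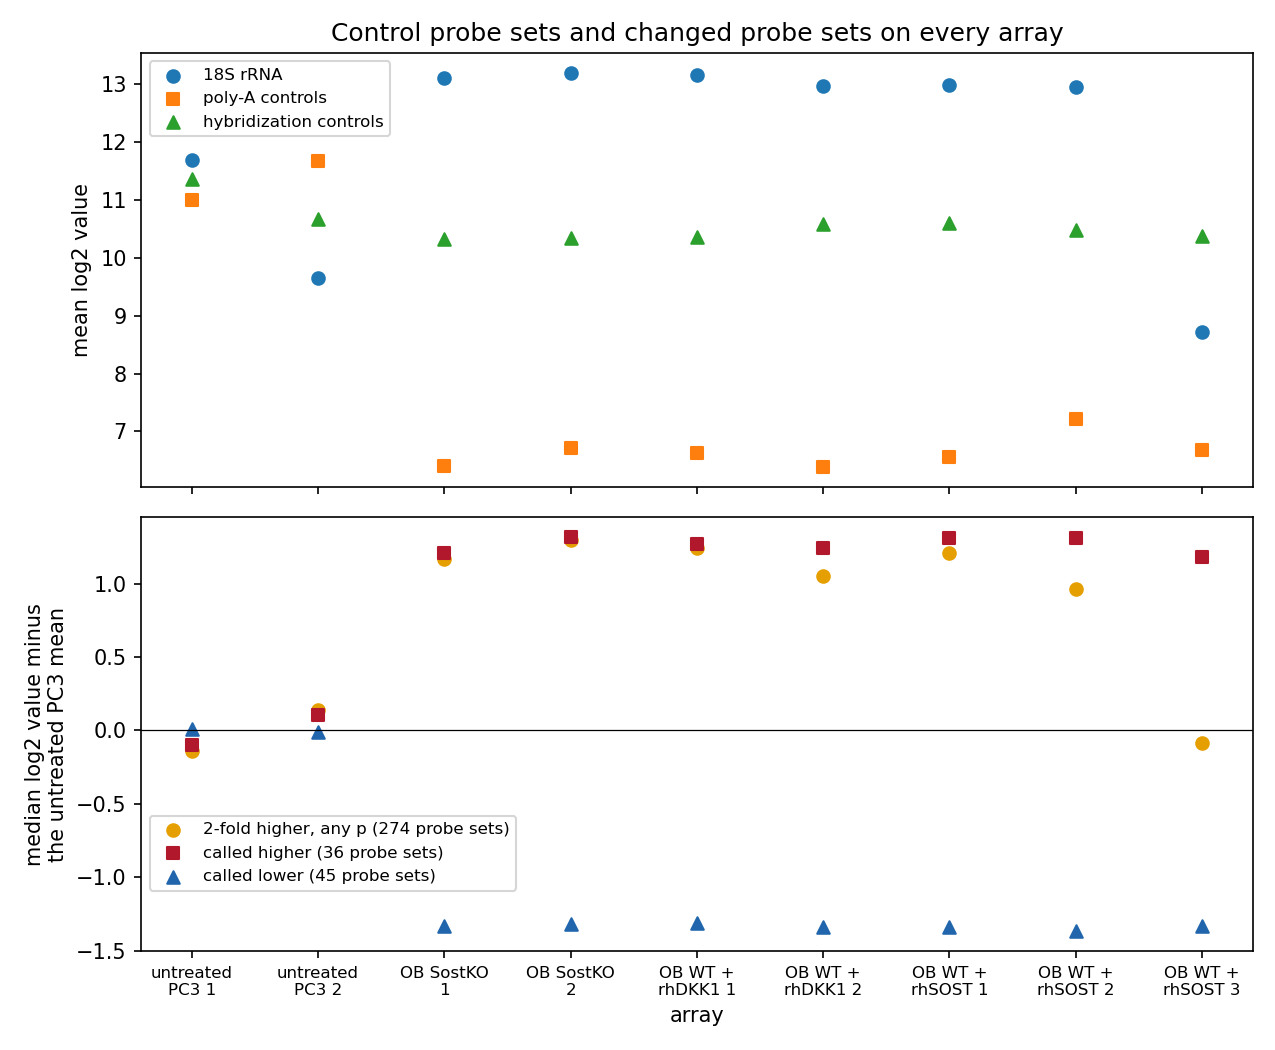
Mean log2 value of the 18S ribosomal RNA, poly-A and hybridization control probe sets (top) and median log2 value above the untreated PC3 mean (bottom) of the probe sets 2-fold higher at any p, called higher and called lower, on each of the 9 arrays (horizontal axis). On rhSOST array 3 the 18S signal is 8.71 and the median of the 274 probe sets is -0.08, while the called groups stay at 1.18 and -1.33.

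Set directly against the other co-cultures, PC3 cells with OB SostKO showed no called gene. Of 54613 probe sets 0 passed a limma adjusted p under 0.05 against OB WT + rhDKK1 and 0 against OB WT + rhSOST. At an unadjusted p under 0.05 with 2-fold, 0 were called against rhDKK1 and 7 were higher against rhSOST (0.0128%). At an unadjusted p under 0.05 of any size there were 808 (1.48%) and 1805 (3.31%), where chance alone gives 2731. The rhSOST group includes array 3, where the 274 probe sets 2-fold higher at any p stood at a median of -0.08 from the untreated mean. The part of that array in these counts was not tested. For the 28 genes called against untreated PC3, the difference from rhDKK1 lay between -0.29 and 0.23 and that from rhSOST between -0.41 and 0.17 on the log2 scale. The 95% interval of the difference excluded a 2-fold change for 27 of the 28 against rhDKK1, the exception being ND6 (-1.02 to 0.44), and for 28 against rhSOST. For IL6 the interval was -0.22 to 0.34 against rhDKK1 and -0.18 to 0.33 against rhSOST. For IGFBP5 it was -0.41 to 0.14 and -0.48 to 0.03. KRT37 was the sole gene of the 28 whose interval left out 0, at -0.71 to -0.12 against rhSOST, before adjustment. The smallest p against rhDKK1 were those of PAXBP1-AS1, LINC00937 and KRT84, a hair keratin, with differences of 0.47, 0.38 and 0.42 (limma adjusted p = 1). Against rhSOST they were those of RFX4, a winged-helix factor, GSDMB, a gasdermin, and ZNF585B, with -0.36, -0.42 and -0.56 (limma adjusted p = 0.939). These counts do not show that the co-cultures act alike, since 2 arrays a group limit what can be seen.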

How the data were processed

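PC3 RNA was read on Affymetrix U133 Plus 2.0 arrays, and groups and array numbers come from the titles. The authors deposited log2 values from RMA, a method listed in the submitters' notes on processing; its software and version are not given in the sources used here. RMA corrects background, forces 1 distribution on the arrays and combines the probes of each probe set, so a change shared by all genes of an array is lost. In R 4.3.3, limma 3.58.1 (lmFit and eBayes) was fitted to 54613 of the 54675 probe sets, leaving 62 controls aside, with 1 mean per group (4 groups, 9 arrays). The fit had 8.73 degrees of freedom, and the median standard error of OB SostKO against untreated PC3 was 0.117. Calls required a Benjamini-Hochberg adjusted p under 0.05 over all probe sets and 2-fold, and list members the adjusted p alone.

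In the platform's annotation 41091 of the tested probe sets carry 1 gene symbol, 1801 several and 11721 none, and 41037 were brought to current RefSeq names. The brightest probe set with 1 symbol stood for its gene (19775 genes). The members and gene lists were chosen with earlier results of these data known. Genes were named where they had the largest rises or falls past the threshold without overlap of the arrays, were among the members of smallest p in a described list or gave it its name, had the widest gap between probe sets, had the smallest p in a direct comparison or lay next to the threshold; other genes were named after their values were seen. Arrays of a group are biological replicates by their labels, and p-values measure the spread between these few arrays. Alternatives were filters at the 40th and 60th percentile, cyclic loess, the compared groups alone, a trended robust prior, a replicate block, each array left out, other thresholds, the methods' t-test and ANOVA with Tukey's comparisons, and 1 value a gene. The fit was tested on simulated data.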

Additional observations from a re-analysis of the deposited data

Results flagged for a closer look

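The 18S ribosomal RNA control probe sets, which belong to no comparison of genes, were 2.48 higher on the log2 scale with OB SostKO than in untreated PC3, above both untreated arrays on both OB SostKO arrays. The probe set at the 3′ end differed by 3.09, that in the middle by 1.93 and that at the 5′ end by 2.42. The value on untreated array 2 (9.64) was below that on untreated array 1 (11.68), and that on rhSOST array 3 was 8.71. Its part in the differences between OB SostKO and untreated PC3 was not tested.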

How the results depend on the processing

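The counts of OB SostKO against untreated PC3 (81 probe sets, 36 higher and 45 lower; 12 genes higher and 16 lower) stayed within 1.5 times under both filters, cyclic loess and the trended robust prior, and the direct comparisons gave 0 at an adjusted p in each fit in which they were run (not with the mean of a gene's probe sets). Fitted on the compared groups alone, 7 probe sets (4 higher, 3 lower) and 0 genes were called, and 0 list members passed. At the adjusted p with no fold 365 probe sets passed (190 higher, 175 lower). An unadjusted p with 2-fold gave 294 (232 higher), and 7 against rhSOST. With 1 probe set a gene, fewer features were tested, and 32 were called (13 higher, 19 lower); with the mean of a gene's probe sets 23 (9 higher, 14 lower). ANOVA with Tukey's comparisons at an unadjusted p gave 113 (64 higher) and the methods' t-test 81 (63 higher, 18 lower), and both gave 0 after Benjamini-Hochberg. The list members that passed, 48, were 73 with the trended robust prior and 80 with 1 probe set a gene.

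Without each array in turn the 81 calls ranged from 28 (without OB SostKO array 1) to 231 (without rhSOST array 3), the 36 higher from 6 (without OB SostKO array 2) to 179 and the 45 lower from 16 to 52. Genes higher ranged from 3 to 21, genes lower from 7 to 18, list members from 8 to 66 and genes whose brightest probe set moved little from 115 to 251; the lone array of a group was assumed to vary like the others. The brightest probe set was chosen anew in each fit for these counts. CRIM1 and the genes called by size or in a list, 58 together, kept their direction in each fit that gave them a value. The cause of these changes was not tested. With the mean of a gene's probe sets 14 of the 58 no longer passed, among them ADARB1, GABBR2, IL23A, NFKBIZ, HBEGF, KLF6 and DUSP1. The numbers of the arrays do not pair them by any label: the deviations of same-numbered untreated and OB SostKO arrays correlated at 0.217, over 2 pairs. With the replicate block 203 probe sets were called (156 higher, 47 lower), with 43 list members. The median standard error of 0.117 with 2 arrays a group limits which differences can be called.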
